A study of Mus musculus with 9 samples.

Results

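The exosome comparison set RSC96 cells, a rat Schwann cell line, given exosomes of menstrual blood-derived stem cells (MenSCs) against control RSC96 cells. Its members are all 185 genes of the authors' deposited table for E-SCs against SCs, out of 819 genes listed in the 3 tables of the series. Schwann cells wrap and support the axons of peripheral nerves, and after injury they leave their myelinating state, divide and secrete trophic factors. Exosomes are small vesicles that carry protein and RNA from the cell that sheds them to a recipient cell. Hes1, the Fos family and Dusp1 belong to genes that cells switch on and off quickly after growth factor, serum or stress signals, which makes their mRNA levels a common readout of signalling state.

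Poly(A)-selected RNA was sequenced in 3 E-SCs libraries and 3 SCs libraries. The sample titles call the treated cells co-cultured with MenSC exosomes and the controls co-cultured with control MenSCs. The design text instead names them as control SCs, and it is thus uncertain whether the controls were untreated. All groups share the RSC96 line, an immortalised line that stands for Schwann cells in culture without axons, and no dose or time of exposure is given in the sources used here. The labels name the organism as mouse, while every identifier in the table is a rat Ensembl identifier. No label tells whether replicate libraries were made from separate cultures, and p-values therefore refer to the spread between the libraries sequenced, which can be technical. Another group, M-SCs, received conditioned medium of MenSCs, and its values are given beside the others where a gene has them.

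Each value is a read count that the authors scaled by library, deposited as the log2 of the scaled count plus 1, and 1 read is worth between 0.888 and 1.15 scaled counts in these 6 libraries. The reads over the 185 genes numbered 13849 to 17601 in the SCs libraries and 9051 to 10048 in the E-SCs libraries. The number of genes the authors tested was estimated as 18409 from their p and FDR columns. At that number, 83.2% of the listed genes had a whole-number rank by p. By this estimate, 5035 of the tested genes (27.4%) reached a p no larger than the largest in the table, 0.0496. The 185 listed genes are 3.67% of those 5035, the smallest listed log2 difference being 1.02. Every listed gene had therefore been selected on these same 6 libraries. The tests below only describe each difference against the replicate spread within that selection, and their adjusted p-values are no independent evidence. The FDR in the authors' deposited table was under 0.05 for 85 of the 185 genes (45.9%). In the limma fit 121 of the 185 genes (65.4%) had an adjusted p under 0.05, 59 of them higher in E-SCs (31.9%) and 62 lower (33.5%), and the groups did not overlap for 133 genes (71.9%). With 1 library left out in turn, 78 to 105 genes were called, 35 to 51 of them higher, and the total was 78 to 81 when the library left out was any but E-SCs replicate 1. Changes on the log2(scaled count + 1) scale understate those of genes with few reads. With the libraries set to equal medians the split of calls became 44 higher and 73 lower. That scaling lowers every difference by 0.23, the shift between the median listed gene of the groups, and those medians come from genes selected for differing. An exact permutation test of a single gene with 3 against 3 libraries cannot go below p = 0.10.

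The Schwann cell label could be checked only in part, since the tables hold selected genes. Of 11 Schwann cell markers, 3 stood in any of the tables and none in the table of E-SCs against SCs. Prx, which encodes the myelin protein periaxin, was at 6.63 ± 0.60 FPKM (SD, n = 3) in SCs and 6.34 ± 0.52 in E-SCs. Pmp22, a compact myelin gene, was at 13.4 ± 0.63 FPKM in E-SCs. None of 37 marker genes of leukocytes, fibroblasts, endothelium and neurons was listed for E-SCs against SCs. Cd14, a monocyte marker listed in another table, was at 3.63 ± 0.66 FPKM in SCs and 2.91 ± 0.23 in E-SCs, and its part in any result was not tested. In bulk RNA, fewer cells with a transcript and less of it per cell cannot be told apart.

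The listed genes with the most reads were mostly lower in E-SCs. Of the 49 genes with a mean log2 value of at least 5 in a group, 24 were lower and 25 higher, but among the 11 with a mean of at least 8, 8 were lower and 3 higher. Of the 49 genes, 45 (91.8%) passed limma's test, 23 lower (46.9%) and 22 higher (44.9%), and the groups did not overlap for 43 (87.8%). The median difference was -1.28 among the 24 lower genes and 1.30 among the 25 higher ones. The level of 5 had members close on either side, with Wdr17 at 5.03 and Mcoln3 at 5.08 just inside and Dnah2 at 4.997 and Gpr4 at 4.996 just outside.

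**Figure D1:**
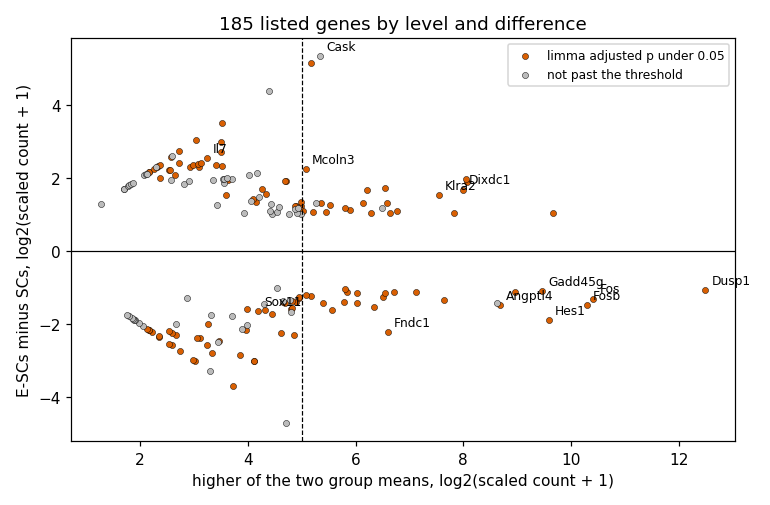
The plot of level and difference shows the 185 listed genes, with the higher of the group means on the horizontal axis and the difference E-SCs minus SCs on the vertical axis, both on the log2(scaled count + 1) scale. Orange points passed limma's test, and the dashed line marks the level of 5. Right of a level of 8 there are 8 points below zero and 3 above, and the band around zero is empty because smaller differences were not listed.

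Dusp1, Fos and Fosb had the highest mean scaled counts of the listed genes in SCs, and the 4 listed immediate early and MAP kinase feedback genes were lower in every E-SCs library. Dusp1, which encodes a phosphatase acting on MAP kinases, had scaled counts of 5743, 5581 and 5978 in SCs and 2861, 2772 and 2573 in E-SCs. The groups lay far apart, and the E-SCs mean was 47.4% of the control mean. That single gene made up 34.2 to 40.3% of the summed scaled count of the listed genes in the SCs libraries and 24.7 to 29.2% in the E-SCs libraries. Fos, which encodes part of the AP-1 transcription factor, had scaled counts of 1427, 1309 and 1355 in SCs and 548, 577 and 527 in E-SCs. Its fall of 1.31 on the log2 scale (SE 0.08, limma adjusted p = 2.81e-05) was larger than any spread within a group. Fosb, its close paralogue, had 1230, 1391 and 1168 in SCs and 446, 430 and 476 in E-SCs, again without overlap, and fell by 1.48 (SE 0.10). Klf2, a zinc finger factor known from quiescent endothelium and T cells, had 79.9, 81.8 and 80.3 in SCs and 24.0, 22.7 and 35.7 in E-SCs. Its control libraries were nearly equal, and the highest treated library was the third (log2 difference -1.55, SE 0.25, adjusted p = 0.0051). Of the 47 genes in the list of immediate early and MAP kinase feedback genes, these 4 were listed. Each of the 4 passed the test downward, where 91.8% of all genes at this level passed in either direction. Their median difference was -1.39, against -1.28 over the 24 lower genes at this level and -1.77 over all 85 lower listed genes.

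Hes1, a transcriptional repressor that Notch signalling induces, showed the largest called decrease after Fndc1 among the genes at this level. It had scaled counts of 764, 717 and 826 in SCs and 191, 202 and 222.5 in E-SCs. The treated libraries lay within a narrow band, and their mean was 26.7% of the control mean. The log2 difference was -1.90 (SE 0.11, limma adjusted p = 2.81e-05), and it stayed between -1.96 and -1.85 with any library left out. Gadd45g, a growth arrest and stress-inducible gene, had 735, 695 and 688 in SCs and 307, 348 and 337 in E-SCs. Neither group spread by more than a small part of the gap, and the difference was -1.09 (SE 0.09, adjusted p = 2.29e-04). Prdm1, the repressor also called BLIMP-1, had 57.7, 68.5 and 67.4 in SCs and 28.0, 36.1 and 21.9 in E-SCs. Its groups did not overlap either, though the treated libraries were spread more widely for their level (-1.17, SE 0.26, adjusted p = 0.012). Among the 27 genes of the Notch, Hes, Hey and Id list, Id2 was the other listed member and is described with the low-count genes.

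Angptl4, Stc1, Fndc1, Vwa1 and Angpt1 also fell. Angptl4, a secreted inhibitor of lipoprotein lipase, had scaled counts of 414, 408 and 412 in SCs and 159, 168 and 118 in E-SCs. The controls lay within a few counts of each other and the lowest treated library was the third, and the fold change was -1.48 in log2 units (SE 0.16, limma adjusted p = 7.13e-04). Stc1, the secreted glycoprotein stanniocalcin, had 64.8, 57.1 and 71.7 in SCs and 23.0, 20.6 and 26.5 in E-SCs. The groups were apart by more than the width of either (-1.43, SE 0.24, adjusted p = 0.0054). Angptl4 and Stc1 were the listed members of the 40-gene hypoxia and glycolysis list, and both fell. Fndc1, a fibronectin type III domain protein, had 108, 83.7 and 96.3 in SCs and 9.0, 37.1 and 21.9 in E-SCs. It was the largest called decrease at this level (-2.23, SE 0.47, adjusted p = 0.0089), and its treated libraries spread 4.13-fold between lowest and highest. Vwa1, an extracellular matrix protein, had 135, 149 and 131 in SCs and 69.0, 56.7 and 63.4 in E-SCs (-1.12, SE 0.17). Angpt1, the ligand of the endothelial receptor TIE2, had 41.7, 59.0 and 66.4 in SCs and 16, 34.0 and 32.3 in E-SCs. Its groups came close to touching, and its adjusted p of 0.040 rose above the threshold without any of the 6 libraries in turn (0.054 to 0.12). It was also above it with a pseudocount of 0.1 in place of 1 (0.051) and without the variance trend of the limma fit (0.063).

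The other lower genes with a symbol were Scara5, B4galnt4, Oas1a, Gna15, Map3k7cl, Hist2h3c2 and Mrfap1. Scara5, a scavenger receptor that binds ferritin, fell from 90.6 ± 11.2 (SD, n = 3) to 38.2 ± 11.1, and B4galnt4, a glycosyltransferase, from 92.6 ± 5.20 to 42.2 ± 10.8. Oas1a, an interferon-induced oligoadenylate synthetase and the listed member of the 28-gene interferon list, had scaled counts of 37.3, 30.5 and 38.5 in SCs and 16, 13.4 and 13.8 in E-SCs. The treated libraries were close to each other and below every control (-1.24, SE 0.29, adjusted p = 0.013). Gna15, a G protein alpha subunit of the Gq class, was at 41.5 ± 7.02 in SCs and 15.7 ± 7.87 in E-SCs, a call (adjusted p = 0.022) that did not hold without SCs replicate 2 or 3, nor without E-SCs replicate 3 (0.052 to 0.064). Map3k7cl went from 48.2 ± 18.0 to 15.3 ± 6.22 (adjusted p = 0.018, and 0.059 without SCs replicate 3). A pair of rows carrying the histone H3 symbol Hist2h3c2 differed by -1.39 and -1.20. Reads of such near-identical copies cannot be assigned with certainty, and both calls were lost without any of the 3 SCs replicates and without E-SCs replicate 2 or E-SCs replicate 3 respectively (adjusted p from 0.064 to 0.088). Mrfap1 was the only lower gene at this level that did not pass (adjusted p = 0.18). Its scaled counts were 270, 1951 and 115 in SCs and 252, 107 and 114 in E-SCs, so that SCs replicate 2 alone stood apart and the other libraries overlapped.

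**Figure D2:**
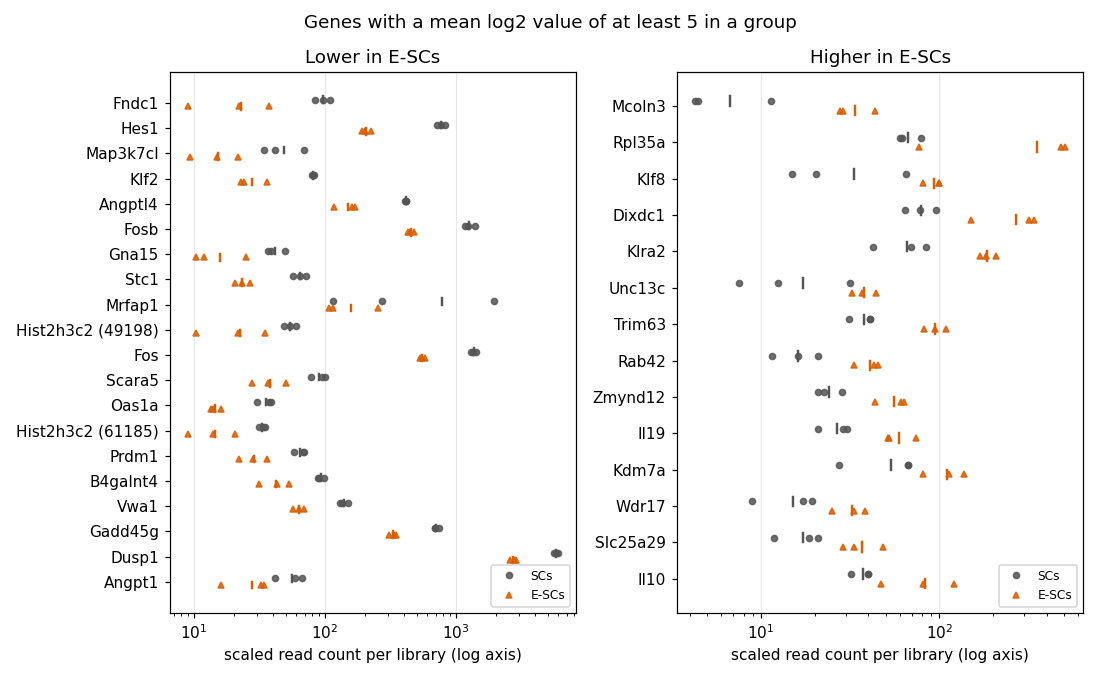
The plot of scaled counts by library shows each named gene with a mean log2 value of at least 5 in a group and reads in all 6 libraries, on a logarithmic axis. Grey circles are SCs libraries, orange triangles E-SCs libraries, and the short vertical lines are group means (n = 3). Dusp1, Fos, Fosb, Hes1 and Gadd45g lie to the right of the lower genes with narrow groups, while most of the higher genes lie under 200 scaled counts and Mrfap1, Klf8 and Rpl35a show a library far from its group.

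The higher genes at this level with a symbol included the immune receptor gene Klra2 and the cytokine genes Il19 and Il10. Klra2, a lectin-like receptor of the Ly49 family known from natural killer cells, had scaled counts of 42.6, 69.5 and 84.6 in SCs and 207, 169 and 182 in E-SCs. Every treated library was well above the highest control, and the log2 difference was 1.54 (SE 0.27, limma adjusted p = 0.0055). Il19, a cytokine of the IL-10 family, had 30.2, 20.9 and 28.9 in SCs and 52.0, 51.6 and 73.8 in E-SCs. Its groups were apart, it rose by 1.12 (SE 0.28, adjusted p = 0.016), and the call held with any library left out (highest adjusted p = 0.038). Il10, an anti-inflammatory cytokine, had 31.96, 40.0 and 39.6 in SCs and 47.0, 81.5 and 121 in E-SCs. The first treated library was close to the controls and the third far above them, and the call (1.05, SE 0.36, adjusted p = 0.040) was lost without any SCs replicate and without E-SCs replicate 2 or 3 (0.080 to 0.11), as well as with equal library medians, without the variance trend and with voom, which weights the recovered reads (0.054 to 0.064). Of the 72 genes in the interleukin and receptor list, 4 were listed, all with higher values in E-SCs, and 3 passed, a share near the 65.4% over all listed genes, the others being Il7 and Il22ra2 described with the low-count genes.

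The remaining higher genes with a symbol were no members of the lists. Mcoln3, a cation channel of endosomes and lysosomes, had scaled counts of 4.44, 11.4 and 4.28 in SCs and 29.0, 27.9 and 43.8 in E-SCs. Every treated library was above every control, and the log2 difference of 2.25 (SE 0.47, limma adjusted p = 0.0089) was the largest called increase among the genes with a symbol at this level. Dixdc1, a DIX domain protein that promotes Wnt signalling, had 63.9, 96.1 and 78.1 in SCs and 340, 320 and 150 in E-SCs, where the third treated library was far below the other two but still above the controls (1.68, SE 0.33, adjusted p = 0.0074). Trim63, the ubiquitin ligase MuRF1 of muscle, had 40.8, 40.9 and 31.0 in SCs and 94.0, 82.5 and 108 in E-SCs. Its groups were well apart and the rise was 1.32 (SE 0.22, adjusted p = 0.0054). Zmynd12, a MYND zinc finger protein, rose from 23.9 ± 3.94 (SD, n = 3) to 55.9 ± 10.5 and Rab42, a small GTPase, from 16.2 ± 4.70 to 40.6 ± 6.33. Both calls held with any library left out.

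Some increases lost their call when a library was left out, or missed the threshold. Kdm7a, a histone demethylase, went from 53.5 ± 22.5 (SD, n = 3) to 111 ± 27.9 (adjusted p = 0.040), and the call was lost without any of the 6 libraries (0.056 to 0.13), and also with a pseudocount of 0.1 (0.055), equal library medians (0.061) and no variance trend (0.069). Slc25a29, a mitochondrial carrier of basic amino acids, went from 17.1 ± 4.77 to 37.0 ± 10.2 (adjusted p = 0.037, lost without SCs replicate 1 or 3, and without E-SCs replicate 2 or 3, at 0.062 to 0.088, and with equal library medians, at 0.069). Wdr17 went from 15.1 ± 5.49 to 32.2 ± 6.67 (adjusted p = 0.043, lost without any SCs replicate and without E-SCs replicate 2 or 3, at 0.055 to 0.11, and also with a pseudocount of 0.1, equal library medians or no variance trend, at 0.051 to 0.081). Klf8, a zinc finger repressor, had scaled counts of 20.4, 64.7 and 15.0 in SCs and 81.0, 99.0 and 99.1 in E-SCs. Its second control library lay close to the treated ones, and the call (1.73, SE 0.51, adjusted p = 0.027) was lost without every library but SCs replicate 2 (0.059 to 0.098). Unc13c, a presynaptic protein that primes vesicles, had 12.4, 31.4 and 7.49 in SCs and 37.0, 44.4 and 32.3 in E-SCs, which did not overlap but missed the threshold (adjusted p = 0.051). It passed in other fits, among them those without SCs replicate 2, with a pseudocount of 5 (0.048) and with voom (0.049).

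Some higher genes had libraries that stood far apart within a group. Rpl35a, a protein of the large ribosomal subunit, had scaled counts of 79.0, 61.9 and 60.0 in SCs and 77.0, 506 and 480 in E-SCs. E-SCs replicate 1 sat among the controls, and the groups overlapped. A second row described as the same ribosomal protein, LOC108349682, had 80.8, 70.4 and 63.2 against 80.0, 499 and 470, so the rows may hold reads of near-identical sequences and are uncertain. Both passed limma's test at an adjusted p of 0.040, and Rpl35a lost the call without any SCs replicate and without E-SCs replicate 2 or 3 (0.095 to 0.16), and also with a pseudocount of 0.1 (0.055), no variance trend (0.063) and voom (0.11). The unnamed loci AABR07064810.1 and AABR07041709.1 had the same order of libraries, at 39.0, 129 and 137 and at 23.0, 60.9 and 64.6 in E-SCs. Cask, a scaffold kinase of synapses, had 0 in all SCs libraries and 266, 0 and 248 in E-SCs, and did not pass (adjusted p = 0.051). It passed in other fits, among them those without E-SCs replicate 2, whose value was 0, with a pseudocount of 5 (0.045) and with equal library medians (0.046). Its reads in M-SCs were 0, 207 and 0, so libraries of that group differed in the same way.

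**Figure D3:**
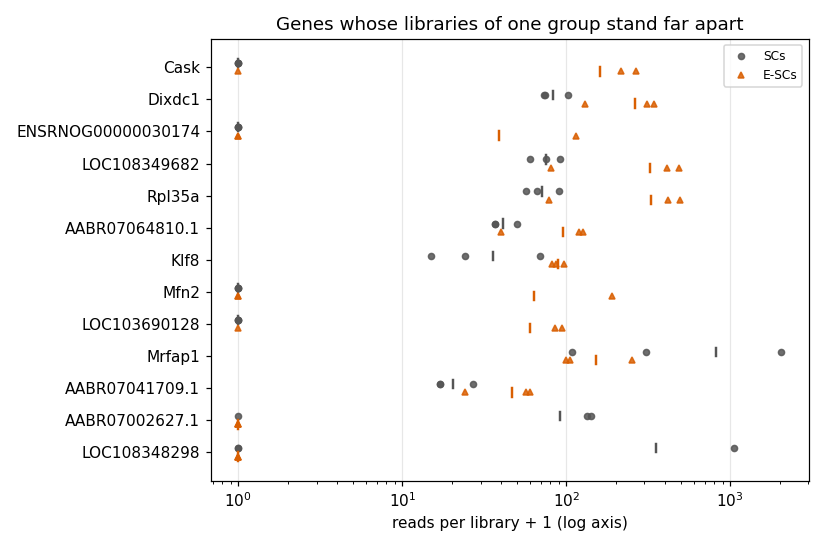
The plot of reads in uneven genes shows 13 listed genes whose libraries of a group stand far apart, as reads per library plus 1 on a logarithmic axis, with SCs as grey circles and E-SCs as orange triangles and short vertical lines at the group means. The genes were chosen after their values were seen. Rpl35a and LOC108349682 have 1 E-SCs library among the controls, and Cask, Mfn2 and LOC108348298 have libraries of the same group both at 0 and at 189 reads or more.

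Conditioned-medium values exist for 104 of the 185 genes, those that were also listed against M-SCs or for M-SCs against SCs, and they are set beside the others without a test because the comparisons share libraries. Dusp1 had scaled counts of 7416, 7621 and 7624 in M-SCs, above both other groups, and Fosb had 1019, 1277 and 1184, within or near the control range of 1168 to 1391. Hes1 was at 514.5, 811 and 669 in M-SCs, where the first library lay below the controls and all were far above the 191 to 222.5 of E-SCs. Klf2 was at 80.2, 110.5 and 102.5. For each of these 4 genes every E-SCs library lay below every library of the other groups. Genes with M-SCs values were selected for a difference that involves M-SCs. Separations of the groups here and in the next paragraph therefore follow in part from that selection.

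Some genes lay on opposite sides of the controls in the treated groups. Angptl4 was at 1484, 1453 and 1574 in M-SCs against 118 to 168 in E-SCs, and Stc1 at 282, 247 and 183 against 20.6 to 26.5. Angpt1 was at 284, 277 and 288 and Prdm1 at 285, 258 and 199, both above every control library. Fndc1, Scara5 and Vwa1 were also higher in each M-SCs library than in each control, at 143 to 172, 130 to 169 and 177 to 220. On the other side, Klra2 was at 13.05, 26.8 and 9.47 in M-SCs and Il10 at 15.8, 10.04 and 18.9, below all controls, while both were above all controls in E-SCs.

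Other genes had like values in the treated groups. Map3k7cl was at 11.2, 11.2 and 25.0 in M-SCs and 15.0, 21.7 and 9.22 in E-SCs, with 34.3 to 68.5 in SCs. B4galnt4 was at 45.7, 35.7 and 46.5 in M-SCs against 31.1 to 52.6 in E-SCs and 88.8 to 98.5 in SCs. Kdm7a was at 124, 98.2 and 86.1 in M-SCs and 113, 81.5 and 137 in E-SCs, and Dixdc1 at 171, 433 and 179 and at 340, 320 and 150. For Mcoln3 the M-SCs libraries, at 7.46, 4.46 and 2.58, overlapped the controls.

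**Figure D4:**
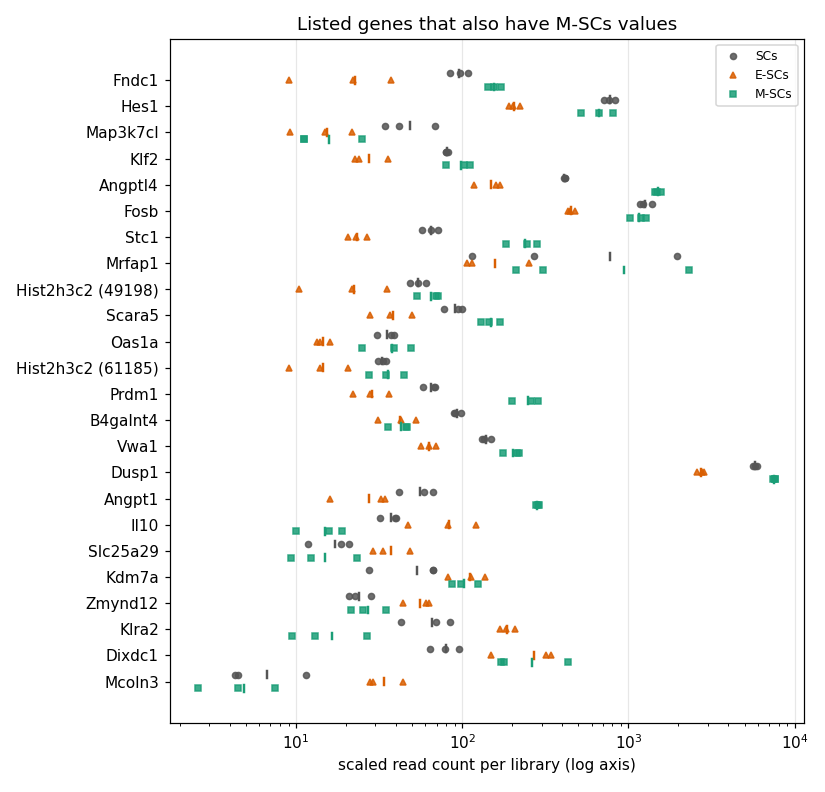
The plot of all 3 groups shows the named genes with M-SCs values and a mean log2 value of at least 5 in SCs or E-SCs, as scaled counts per library on a logarithmic axis, leaving out Cask. Grey circles are SCs, orange triangles E-SCs and green squares M-SCs, with short vertical lines at the means (n = 3). Angptl4, Stc1, Prdm1 and Angpt1 have M-SCs to the right and E-SCs to the left of SCs, Klra2 and Il10 the reverse, and for B4galnt4 and Map3k7cl both treated groups lie to the left.

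Per transcript length, Dusp1 was also the highest of the listed genes with E-SCs values. The deposited FPKM cover E-SCs for 75 of the 185 genes, of which 16 had a mean of at least 1, 10 of them lower and 6 higher than SCs. Dusp1 was at 43.7 ± 2.51 FPKM (SD, n = 3) in E-SCs, Hes1 at 4.38 ± 0.32, Il10 at 3.76 ± 1.68, Fosb at 3.71 ± 0.18 and Angptl4 at 2.42 ± 0.45. The genes between Dusp1 and Hes1 carry no assigned symbol, and the order from Hes1 to Fosb is within the spread of Il10.

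Low-count genes made up 136 of the 185 listed genes, with a mean log2 value under 5 in both groups. Of these, 75 had higher and 61 lower values in E-SCs, and limma's test was passed by 76 (55.9%), 37 higher (27.2%) and 39 lower (28.7%), and the groups did not overlap for 90 (66.2%). With 1 library left out in turn, 45 to 65 low-count genes were called, and 45 to 50 when it was any but E-SCs replicate 1. The deepest library of the median low-count gene held 16 reads, and 79 of the 136 had under 20 reads in every library. The median SD between libraries of a group on the log2 scale was 0.57 in SCs and 0.60 in E-SCs, against 0.19 and 0.30 for the genes at the higher level. The authors' FDR in their deposited table was under 0.05 for 42 of the 136 (30.9%) and for 43 of the 49 genes at the higher level (87.8%).

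Among low-count genes, Sox11 and Gli1, members of the 33-gene Schwann cell and myelin list, fell in E-SCs. Sox11, a transcription factor of immature neural cells and the first gene of the series title, had 27, 23 and 9 reads in SCs against 5, 6 and 3 in E-SCs. SCs replicate 3 lay closest to the treated libraries without overlapping them, and the ratio of E-SCs to SCs per depth was 0.26 with an exact 95% interval of 0.13 to 0.47 that covers counting error only (limma adjusted p = 0.030, lost without SCs replicate 1 or 2, and without E-SCs replicate 2 or 3, at 0.053 to 0.093, and with voom, at 0.057). Gli1, the transcription factor that reads out Hedgehog signalling, had 20, 19 and 7 reads in SCs against 0, 0 and 6 in E-SCs, while the M-SCs libraries held 46, 20 and 17. Its E-SCs replicate 3 came close to SCs replicate 3, and its call (adjusted p = 0.033) was lost without any SCs replicate and without E-SCs replicate 1 or 2 (0.056 to 0.12), and with a pseudocount of 0.1 among other settings (0.051).

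Other low-count list members were Id2, which fell, Il7, which rose, and Il22ra2 and Timp3, whose values were higher in E-SCs but did not pass the test. Id2, an inhibitor of helix-loop-helix transcription factors, had 38, 18 and 32 reads in SCs against 7, 13 and 9 in E-SCs, apart in every library (-1.36, SE 0.43, adjusted p = 0.032, lost without SCs replicate 1 or 3, and without E-SCs replicate 1 or 3, at 0.066 to 0.096, and with voom among other settings, at 0.053). Il7, a lymphocyte growth factor, had 0, 0 and 3 reads in SCs against 7, 9 and 8 in E-SCs, which is 8.77 times as many per depth (exact 95% interval 2.66 to 45.5). It passed limma's test (adjusted p = 0.023, lost without SCs replicate 1 or 2, and without E-SCs replicate 2 or 3, at 0.061 to 0.074) and had an FDR of 0.078 in the authors' deposited table. Il22ra2, which encodes a soluble IL-22 receptor, had 7, 3 and 0 reads in SCs against 8, 8 and 18 in E-SCs, which nearly touched, and it did not pass (adjusted p = 0.063). Timp3, an inhibitor of metalloproteinases, had no reads in SCs and 5, 11 and 0 in E-SCs and did not pass (adjusted p = 0.063), except without E-SCs replicate 3, whose value was 0. The M-SCs libraries held 4, 12 and 11 reads of Il7 and 3, 29 and 14 of Il22ra2, against 3, 4 and 6 of Sox11.

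**Figure D5:**
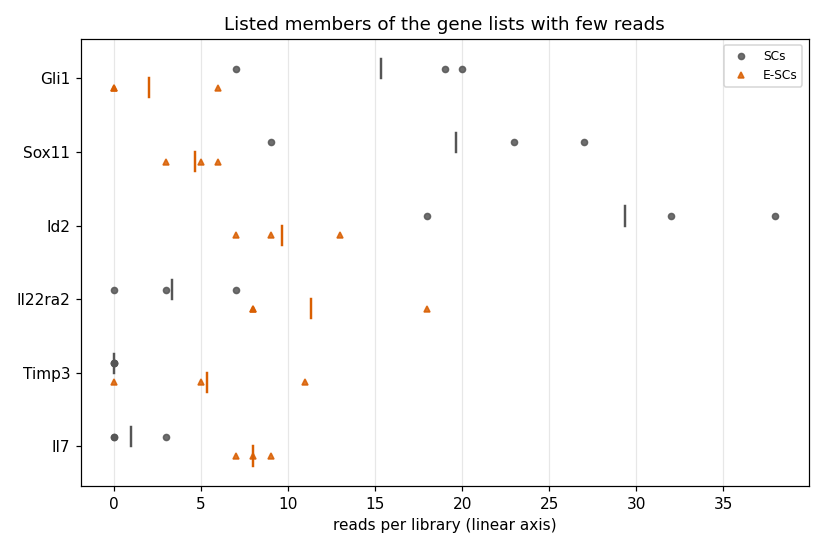
The plot of low-count list members shows reads per library on a linear axis for 6 genes, with SCs as grey circles, E-SCs as orange triangles and short vertical lines at the means (n = 3). Sox11, Gli1 and Id2 have their control libraries to the right, Il7, Il22ra2 and Timp3 their treated libraries, and no library of any of the 6 genes exceeds 38 reads.

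The low-count genes with the most reads that fell included Sema7a, a membrane-bound semaphorin, F2rl3, a thrombin receptor, Faim2, an inhibitor of Fas-mediated death, and Cabyr, Clhc1 and Tmem252, beside Id2. Sema7a had 12, 48 and 24 reads in SCs against 9, 2 and 3 in E-SCs, while the M-SCs libraries held 41, 46 and 47. Its lowest control was near its highest treated library, and the call (-2.24, SE 0.69, adjusted p = 0.030) was lost without SCs replicate 2 or 3, and without E-SCs replicate 2 or 3 (0.081 to 0.10), and with voom among other settings (0.085). The differences of the other 5 genes lay between -1.61 for F2rl3 and -1.39 for Cabyr. Each of them lost the call without at least 1 library, Clhc1 without SCs replicate 2 only (0.064). Cabyr lost it without SCs replicate 1 or 3 (0.054 to 0.065), F2rl3 without SCs replicate 1 or 3, and without E-SCs replicate 3 (0.053 to 0.081) and with voom (0.055), Tmem252 without SCs replicate 1 or 3, and without E-SCs replicate 2 (0.053 to 0.079) and Faim2 without SCs replicate 1 or 3, and without E-SCs replicate 2 or 3 (0.081 to 0.093).

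The low-count genes with the most reads that rose included Dnah2, Lsmem2, Tsks, Fam84b, Spag6, Asb5 and Cdkl4. Dnah2, a heavy chain of axonemal dynein, had 11, 14 and 11 reads in SCs against 29, 33 and 26 in E-SCs. Its groups were tight and well apart, it rose by 1.35 (SE 0.31, adjusted p = 0.012), and it was the only named low-count gene whose call held with any library left out. In M-SCs its reads were 26, 26 and 45, also above all controls. Spag6, an axonemal protein, had 14, 4 and 2 reads in SCs against 18, 25 and 11 in E-SCs, on scaled counts just apart, and Tsks, a testis kinase substrate, had 6, 5 and 8 against 21, 11 and 17. Asb5, an ankyrin repeat and SOCS box protein, had 8, 3 and 9 reads in SCs against 22, 30 and 20 in E-SCs (1.91, SE 0.49, adjusted p = 0.018, and 0.063 without E-SCs replicate 2). Cdkl4, a kinase of the cyclin-dependent kinase-like family, rose by 1.92, Fam84b by 1.56 and Lsmem2 by 1.23. Lsmem2 lost the call without any SCs replicate and without E-SCs replicate 2 or 3, and Fam84b without SCs replicate 1 or 3, and without E-SCs replicate 2 or 3. Cdkl4 lost it without SCs replicate 3 or any E-SCs replicate, Spag6 without SCs replicate 2 or 3 or any E-SCs replicate, and Tsks without any SCs replicate and without E-SCs replicate 1 or 3. The adjusted p-values of these 5 genes in those fits were 0.052 to 0.16. Equal library medians and voom also ended the calls of Lsmem2, Tsks and Spag6, as did a pseudocount of 0.1 and no variance trend that of Spag6 (0.052 to 0.079).

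In 25 of the 185 genes no SCs library held a read and in 22 no E-SCs library did, so these genes have no fold of their own. Their folds are given against a floor of 3 reads over the empty group. They leave out counting error in the group with reads and are not strict lower bounds. Of the 25, 11 passed limma's test, and of the 22, 12 did, where 65.4% of all listed genes and 55.9% of the low-count genes passed. The genes named here were chosen after their values were seen. Sele, the endothelial adhesion molecule E-selectin, had 8, 3 and 6 reads in E-SCs and was 6.21-fold above the floor. Ccr1, a chemokine receptor, had 3, 4 and 3 reads in E-SCs and was 3.66-fold above it. Klhl10, a substrate adaptor known from the testis, had 15, 11 and 12 reads in SCs, 11.5-fold above the floor set for E-SCs. Syt8, a synaptotagmin, had 5, 7 and 11 reads in SCs, 6.99-fold above that floor. Each of these 4 had reads in all libraries of the group that held them. Apart from the unnamed locus Rn60_20_0051.7 and the uneven genes in the plot of reads above, no gene of this kind exceeded 15 reads in a library.

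By the KEGG annotation in the authors' table, 55 of the 185 genes had a pathway. All 6 listed genes of the MAPK signaling pathway were lower in E-SCs, each past limma's threshold, among them Fos, Dusp1, Gadd45g, Angpt1 and Mapk13, a stress-activated kinase with a total of 18 reads in SCs against 1 in E-SCs. Of the 6, 4 were among the genes at the higher level. All 4 listed genes of the Jak-STAT signaling pathway had higher values, and they are the interleukin genes Il7, Il10, Il19 and Il22ra2 already given, of which 3 passed. Cytokine-cytokine receptor interaction held 7 genes, 5 higher and 2 lower, and 5 of the 7 passed. Over all 185 genes 65.4% passed, so these shares describe the listed genes only.

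Several lists held no gene of this comparison. None of the 48 chemokine and NF-kB genes, the 38 genes of DNA replication and the G1/S transition, the 28 of G2/M and mitosis, the 14 heat shock genes and the 24 glucocorticoid and clock genes was listed for E-SCs against SCs. The stress list of 25 genes held Gadd45g, the fatty acid and PPAR target list of 34 held Angptl4 and the matrix and TGF-beta list of 58 held Timp3, each as its single listed member. A gene outside the table was not shown to be unchanged, since only genes selected at 2-fold or more were deposited in it.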

How the data were processed

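Per the labels' protocols, oligo(dT)-selected RNA was sequenced paired-end on Illumina HiSeq. HISAT2, StringTie and mm10, a mouse build, appear without stated roles, per the submitters' processing notes. All identifiers are rat, so no coordinate or sequence is given. The authors deposited log2 values of a scaled read count (plus 1), as the values themselves show, and every value was a whole multiple of the worth of 1 read within 0.01 reads. Each p-value and FDR in the authors' deposited table is their own, by a test not given in the sources used here. FPKM deposited by the authors stand in the other 2 tables.

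Differences were recomputed as the E-SCs mean minus the SCs mean. limma 3.58.1 (R 4.3.3) with a variance trend was fitted to the 6 libraries without a filter, and p-values were adjusted by Benjamini-Hochberg over the 185 genes with a threshold of 0.05. The fit was also run on simulated reads of genes not selected for differing, which cannot show its error rate among the listed genes. Summaries and plots used Python 3.11.15, pandas 2.3.3, numpy 2.4.6, scipy 1.17.1 and matplotlib 3.10.9. Total depth is unknown because only selected genes are tabulated. Intervals on ratios of reads are exact 95% binomial intervals and, like the floor of 3 reads over a group, cover counting error only.

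Named genes have an assigned symbol. At a mean log2 of at least 5 they are the 12 largest increases and decreases that passed without overlap, and below it the 8 per direction with the most reads that passed. Some genes that meet the rule are not reported here. List members and the title genes Sox11, Il7 and Il22ra2 were added. Other named genes at the higher level, such as Mrfap1 and Rpl35a, are allowed by the same rule. The members and lists were chosen with earlier results of these data known. Alternatives changed the pseudocount, the scaling, the filter, the variance model and the libraries used.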

Additional observations from a re-analysis of the deposited data

How the results depend on the processing

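The count of 121 called genes was 78 to 105 with a library left out in turn, lowest without SCs replicate 2. The higher calls were then 35 to 51, the lower 42 to 54, those at the higher level 30 to 40 and those among low-count genes 45 to 65. With the 49 higher-level genes alone, 48 were called, 25 higher and 23 lower. With only the 106 genes that had at least 20 reads in a library tested, 84 were called, 43 higher and 41 lower. Of these 84, 48 were at the higher level and 36 were low-count genes. That fit tested fewer genes, so a smaller count in it does not by itself mean that calls were lost. By the authors' FDR in their deposited table, 38 were called higher and 42 low-count genes were called. With the replicate number as a block, 122 genes were called, 64 higher and 58 lower. That block ended 5 named calls, Gli1, Id2, Sema7a and Lsmem2 among them (adjusted p 0.052 to 0.057), and Unc13c (0.042) and Cask (0.046) passed with it. Same-numbered libraries did not deviate together over the listed genes (correlations of 0.0011, -0.0069 and 0.023). A pairing could go unseen among selected genes with few reads, so these correlations do not settle whether the numbers pair libraries. The total was 98 and 126 with pseudocounts of 0.1 and 5, 117 with equal library medians, 107 without the trend and 107 with voom on the recovered reads. Without the 6 genes that had both 0 and at least 50 reads within a group, an alternative chosen after seeing the data, it was 125 of 179. Over 57 named genes and 684 alternatives no direction reversed, 158 calls were lost and 9 gained. Of the 32 called named genes at the higher level, 21 kept the call with any library left out, and of the 20 low-count ones only Dnah2 did. The cause of these shifts was not tested. Few reads limit the low-count genes.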

Other observations

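Among the listed genes, 6 had 0 reads in a library and at least 50 in another library of the same group, and none passed limma's test, while the FDR of the authors' deposited table was under 0.05 for 3 of them. LOC108348298 had 1060, 0 and 0 reads in SCs against none in E-SCs, while the M-SCs libraries held 937, 0 and 0, with an FDR of 1.33e-08 in the authors' deposited table. Mfn2, a mitochondrial fusion GTPase, had no reads in SCs, while the E-SCs libraries held 0, 0 and 189 and the M-SCs libraries 0, 158 and 0, with an FDR of 5.24e-07 there and a limma adjusted p of 0.23. Both differences rest on a single library.

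Zfp647 and LOC102555083 had identical reads in all 6 libraries, at 18, 17 and 16 in SCs against 9, 0 and 0 in E-SCs, so they are not separate measurements.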
